A study of Mus musculus with 8 samples.

Results

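Calb1, Calb2 and Pvalb encode calbindin-D28k, calretinin and parvalbumin, the 3 EF-hand proteins most used to tell hippocampal neurons apart. They were taken by symbol from the 30211 genes counted in 8 single-nucleus RNA sequencing (sn-RNAseq) libraries of mouse hippocampus, so the members are 3 of 30211 genes, and the choice by symbol uses no measured value, although earlier results of these data were known. Calbindin and parvalbumin bind free calcium after each influx and shape the size and the decay of the transient, and calretinin does so with faster and cooperative binding. In the hippocampus, calbindin is a marker of mature dentate granule cells and superficial CA1 pyramidal cells. Calretinin marks Cajal-Retzius cells, mossy cells of the mouse hilus, immature granule cells and some interneurons, and parvalbumin marks fast-spiking basket and axo-axonic interneurons.

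The libraries came from 1 mouse each. There were 3 wild-type mice (WT, 7 mo old), 3 mice lacking Gsap (GKO, 7 mo old), 1 J20;WT mouse and 1 J20;GKO mouse (both 6 mo old). GKO mice were constitutive, from a floxed Gsap allele recombined by CMV-Cre, and J20 mice carry human APP with the Swedish and Indiana mutations under the PDGFB promoter. The strain of all groups was C57BL/6 in the labels and C57BL/6N in the methods of the study. Sets of libraries also differ in the date that the deposited data carry. WT 1 and GKO 1 share a date, J20;WT has a date of its own, and the other 5 libraries share the third. J20 therefore cannot be told apart from the difference in age, and J20;WT cannot be told apart from its date.

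In GRCm38 with the GENCODE M21 annotation, Calb1 (ENSMUSG00000028222) lies on the plus strand of chromosome 4 from 15881264 to 15908064. Calb2 (ENSMUSG00000003657) lies on the minus strand of chromosome 8 from 110137502 to 110168210, and Pvalb (ENSMUSG00000005716) on the minus strand of chromosome 15 from 78191114 to 78206400. The annotation places no other gene over any of the 3.

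After the filter on nuclei, 32041 nuclei remained, with 21020159 to 43310978 unique molecular identifiers (UMIs) per library and medians of 4579 to 6438.5 UMIs per nucleus. Pairs of libraries shared 2 to 21 cell barcodes. App, which checks the transgene, stood at 1096 and 1250 CPM (UMIs of the gene per 1000000 UMIs) over all nuclei of J20;WT and J20;GKO, against 463 to 550 CPM in the other libraries. Gsap stood at 22.6 ± 0.36 CPM in WT and 21.2 ± 1.21 CPM in GKO (SD, n = 3 each), and 3′ counts, which need not cover the deleted exons, do not check the deletion. Xist was above 100 CPM in 3 of the 8 libraries (WT 1, GKO 1 and J20;GKO), so the 2 J20 mice differed in it.

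Each nucleus was placed in 1 of 12 classes by lists of marker genes that do not hold Calb1, Calb2 or Pvalb. The gate gave 5633 dentate granule, 3129 CA1, 1158 CA3, 1819 interneuron and 344 Cajal-Retzius nuclei, and 4296 nuclei stayed in no class. All 8 markers of the dentate granule list were detected in that class in every library, among them Prox1, the transcription factor that specifies granule cells, at 237 to 271 CPM without J20 and 241 and 187 CPM in J20;WT and J20;GKO. Gad1, Gad2 and Slc32a1, which make and load GABA, were at 122 CPM or more in interneuron nuclei of every library. The gate placed nuclei by these same genes, so their presence in a class was fixed in advance and does not test its identity. Cajal-Retzius nuclei were few, at 17 to 70 per library, which limits every value given for them. Of the 344, 260 held no UMI of Ebf2, a gene of their marker list, and whether these are Cajal-Retzius cells was not tested. Of the 8 dentate granule markers, 3 passed the threshold with J20 themselves (C1ql2 higher, Dock10 and Dsp lower), so the comparison was repeated with a list without them. Their summed level in dentate granule nuclei was 3253 to 3552 CPM without J20, 3725 CPM in J20;WT and 2991 CPM in J20;GKO.

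Calb1 was highest in dentate granule nuclei. Over the 6 libraries without J20 its level there was 127 ± 10.8 CPM (SD, n = 6), and the lowest library, at 115 CPM, was above the highest library of each of the other 11 classes. CA1 nuclei followed at 46.4 ± 3.83 CPM, interneurons at 42.5 ± 9.34 CPM and Cajal-Retzius nuclei at 40.3 ± 34.0 CPM (SD, n = 6 each). The ranges of these 3 classes overlapped. CA3 nuclei, at 13.9 ± 6.01 CPM, were no higher than oligodendrocytes at 14.8 ± 3.53 CPM and astrocytes at 16.6 ± 4.41 CPM (SD, n = 6 each), cells that should lack calbindin. The CA3 range of 8.56 to 23.6 CPM overlapped those of both.

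**Figure D1:**
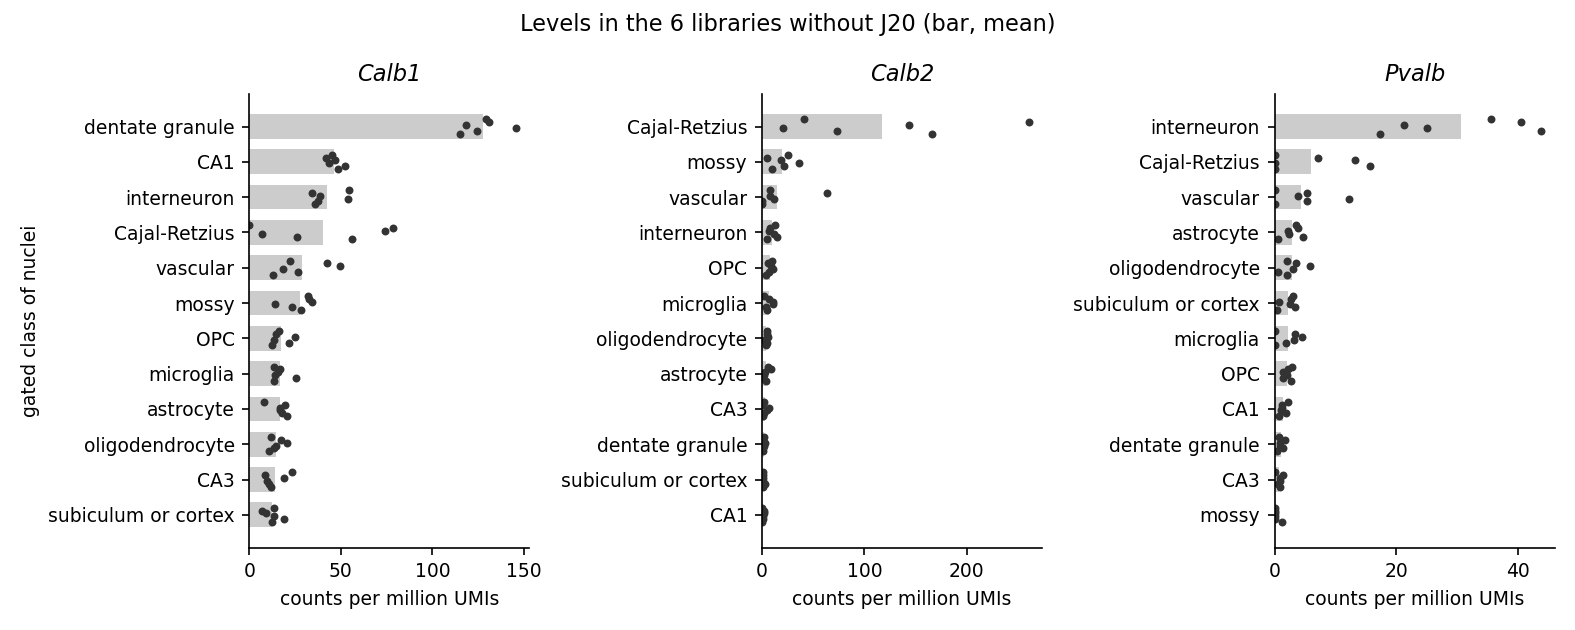
CPM (horizontal axis) of Calb1, Calb2 and Pvalb in each of the 12 gated classes (vertical axis) in the 6 libraries without J20, with points for libraries and bars for their mean. Dentate granule nuclei are the highest class for Calb1 (127 CPM), Cajal-Retzius nuclei for Calb2 (117 CPM, with libraries from 20.8 to 260 CPM) and interneurons for Pvalb (30.5 CPM).

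Calb2 was highest in Cajal-Retzius nuclei, at 117 ± 90.1 CPM, followed by mossy nuclei at 19.6 ± 11.1 CPM, vascular nuclei at 15.1 ± 24.1 CPM and interneurons at 9.74 ± 4.06 CPM (SD, n = 6 each). The vascular mean was raised by WT 2, at 63.4 CPM from 12 UMIs in 48 nuclei. By the median, vascular nuclei were at 7.57 CPM, below interneurons at 9.74 CPM. The Cajal-Retzius and mossy ranges overlapped, as did those of every further pair of neighbours in the order. In dentate granule nuclei Calb2 was at 1.76 ± 0.63 CPM and in CA1 nuclei at 1.06 ± 0.74 CPM (SD, n = 6 each), with a mean below that of oligodendrocytes at 4.50 ± 1.21 CPM. Pvalb was at 30.5 ± 10.9 CPM in interneurons (SD, n = 6), and its lowest library there, at 17.3 CPM, was above the highest library of the next class, Cajal-Retzius nuclei at 15.7 CPM. In the 10 remaining classes the mean of Pvalb was at most 4.42 CPM.

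The question of the next comparison was whether the 3 genes differ in the hippocampus of mice with mutant APP. In dentate granule nuclei, Calb1 was lower in both J20 libraries. Its level was 119, 131 and 129 CPM in the WT libraries, 115, 125 and 146 CPM in the GKO libraries, 69.0 CPM in J20;WT and 49.1 CPM in J20;GKO. Both J20 libraries lay below all 6 others, and the J20 mean was 53.6% lower. The log2 fold change was -1.17 ± 0.14 (SE), 2.26-fold lower, with an adjusted p of 9.5e-04 in edgeR's quasi-likelihood test over 14965 genes. The exact permutation test of 2 libraries against 6 gave p = 0.0714 (two-sided), the smallest p that this design allows.

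A gene was called where its adjusted p was under 0.05 and its log2 fold change was larger than 0.3 in either direction. In this comparison 735 of 14965 genes were called, or 4.91%. Of these 330 were higher and 405 lower, so that 2.71% of genes were lower by the same rule as Calb1. With library size as the only scaling the split was 418 higher and 325 lower, and Calb1 fell by 1.11 on the log2 scale. Calb1 passed the threshold under each of the 20 alternatives, with log2 fold changes from -1.46 to -0.97. The value of -0.97 came without J20;GKO and that of -1.46 with the date as a term. There J20;WT, alone at its date, has no part in the estimate, which rests on J20;GKO alone among the J20 libraries. J20;GKO was also the only library of its date with Xist above 100 CPM, so this estimate cannot tell J20 from that difference. With Dock10, C1ql2 and Dsp taken out of the gate, an alternative chosen after seeing the data, the change was -1.16.

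**Figure D2:**
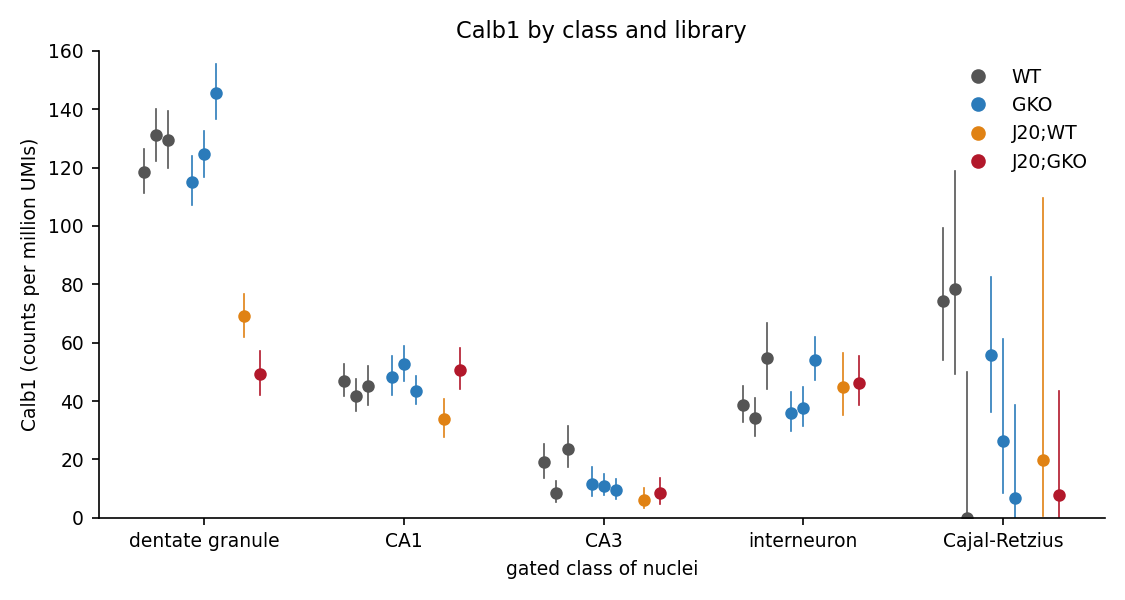
Calb1 in CPM (vertical axis) for each library, coloured by genotype, in the 5 classes compared (horizontal axis), with bars for the exact Poisson 95% interval of counting error. In dentate granule nuclei the J20 libraries, at 69.0 and 49.1 CPM, lie below the 6 others at 115 to 146 CPM, while in CA1 nuclei J20;WT is below the others at 33.8 CPM and J20;GKO among them, and in interneurons both are among them.

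Fewer dentate granule nuclei held a Calb1 UMI in J20, and those that did held fewer. Between 53.3% and 58.0% of nuclei had at least 1 Calb1 UMI in the 6 libraries without J20, against 31.7% with J20;WT and 29.0% with J20;GKO. With each nucleus thinned to 2000 UMIs, which left out 3 to 26 granule nuclei per library, the shares were 17.4% to 23.5% against 11.2% and 7.57%. Oligodendrocytes, thinned in the same way, had a Calb1 UMI in 1.79% to 4.68% of nuclei without J20 and in 0.995% and 0.882% with J20. Their medians before thinning were 1880 to 2528 UMIs without J20, 1857 in J20;WT and 2600 in J20;GKO, so this background comes from their deeper nuclei. Dentate granule shares were above this background in every library. Where Calb1 was detected in unthinned granule nuclei, it averaged 1.83 to 2.32 UMIs without J20, against 1.41 in J20;WT and 1.56 in J20;GKO.

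Calb1 counts in some glia were lower with J20 too. In oligodendrocytes Calb1 was 10.8 to 20.4 CPM without J20 and 6.89 and 6.07 CPM in J20;WT and J20;GKO, and in OPCs 12.3 to 24.7 CPM against 4.77 and 4.54 CPM. In astrocytes it was 8.09 to 20.4 CPM against 9.16 and 6.39 CPM, and in microglia 13.7 to 25.8 CPM against 18.5 and 20.1 CPM. The J20 libraries were below all others in oligodendrocytes and OPCs, and overlapped them in astrocytes and microglia. Dentate granule nuclei had a median of 7213 to 10144 UMIs in the libraries without J20, 5872 in J20;WT and 8740 in J20;GKO. Summed CA3 markers in dentate granule nuclei were 428 to 520 CPM without J20, 527 CPM in J20;WT and 757 CPM in J20;GKO, and the OPC markers were 31.0 to 44.3 CPM, 42.9 CPM and 67.5 CPM. The summed interneuron markers were 41.1 to 54.6 CPM without J20 and 47.8 and 38.7 CPM with it. The part of these measures in the Calb1 difference was not tested.

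In CA1 pyramidal nuclei, Calb1 ranged from 41.8 to 52.5 CPM with a median of 46.0 CPM in the 6 libraries without J20. It was 33.8 CPM in J20;WT and 50.8 CPM in J20;GKO. J20;WT was below all 6 and J20;GKO was among them. The log2 fold change was -0.18 ± 0.14 (SE, 95% interval -0.46 to 0.10, edgeR adjusted p = 0.689), in a comparison in which 5 of 14499 genes, 0.0345%, passed the threshold. Without J20;WT the value was 0.03 and with the date as a term 0.07.

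In interneurons, Calb1 ranged from 34.1 to 54.6 CPM with a median of 38.2 CPM without J20, and both J20 libraries, at 44.9 and 46.3 CPM, lay inside that range. The log2 fold change was 0.07 ± 0.20 (SE, 95% interval -0.33 to 0.46, edgeR adjusted p = 0.975). None of 13928 genes passed the threshold there, 0%, with 864 at an unadjusted p under 0.05 and 6 past the threshold in DESeq2. In CA3 nuclei, Calb1 was 8.56 to 23.6 CPM without J20 and 6.05 and 8.43 CPM with it, with a log2 fold change of -0.93 ± 0.40 (SE, edgeR adjusted p = 0.554) and levels no higher than in glia. It was -0.36 without J20;WT and -1.50 without J20;GKO. In CA3, 4 of 12511 genes passed, 0.032%.

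The difference between classes was tested in each library as the log2 ratio of the granule level to that of the other class. For CA1 this ratio of Calb1 was 1.27 to 1.73 without J20, 0.98 in J20;WT and -0.05 in J20;GKO. For interneurons it was 1.25 to 1.97 without J20, 0.59 in J20;WT and 0.07 in J20;GKO. Both J20 libraries were below the 6 others in each ratio. The change differed by -0.999 ± 0.24 (SE) from that in CA1 and by -1.28 ± 0.22 (SE) from that in interneurons, and neither passed after adjustment over all genes (limma adjusted p = 0.132 and 0.0887). In these tests 0.443% and 0.217% of genes had an adjusted p under 0.05. A difference between the classes in the response of Calb1 was therefore not shown over all genes, and this test was chosen after seeing the data.

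Calb2 in dentate granule nuclei, where it is known from immature granule cells, was 1.16 to 2.70 CPM without J20 and 2.81 and 1.74 CPM in J20;WT and J20;GKO. These are 6 to 22 UMIs per library. The log2 fold change was 0.29 ± 0.44 (SE, 95% interval -0.57 to 1.15, edgeR adjusted p = 0.778). In interneurons Calb2 was 4.63 to 15.0 CPM without J20 and 10.9 and 12.8 CPM with it, a change of 0.27 ± 0.38 (SE, 95% interval -0.47 to 1.01, edgeR adjusted p = 0.937).

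Pvalb in interneurons ranged from 17.3 to 43.8 CPM with a median of 30.3 CPM without J20, and was 25.5 CPM in J20;WT and 26.7 CPM in J20;GKO. Both lay inside the range, and the log2 fold change was -0.25 ± 0.33 (SE, 95% interval -0.89 to 0.40, edgeR adjusted p = 0.933). In CA1 nuclei Pvalb was 0.675 to 2.18 CPM without J20 and 1.27 and 3.25 CPM with it (0.74 ± 0.52, SE, edgeR adjusted p = 0.655). In dentate granule, CA3 and Cajal-Retzius nuclei Pvalb did not pass the filter on low counts. No Pvalb UMI was seen among 3439397 UMIs of granule nuclei in J20;GKO. The floor of 3 counts for a 0 is 0.872 CPM there, and the exact Poisson 95% interval reaches 1.07 CPM.

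Interneurons were divided further into 5 subtypes by lists that also leave out the 3 genes, and 1519 of the 1819 nuclei were placed. Pvalb was carried by the Pvalb-type subtype, named for its other markers, at 67.1 to 166 CPM without J20 and 106 and 108 CPM with J20. Calb2 was highest in the Vip-type subtype, which holds interneurons that mainly target other interneurons, at 21.4 to 82.4 CPM without J20 and 70.0 and 76.6 CPM with it. Cck-type nuclei followed at 2.94 to 22.0 CPM without J20, a range that overlaps that of Vip-type nuclei. In WT 1 Cck-type nuclei held 10 Calb2 UMIs and Vip-type nuclei 9. Calb1 was spread over several subtypes. It was at 49.1 to 106 CPM in Sst-type nuclei, 6.78 to 77.0 CPM in Cck-type nuclei and 6.21 to 62.9 CPM in Pvalb-type nuclei without J20. In the J20 libraries it was 85.5 and 87.6 CPM in Sst-type nuclei, inside the range of the others.

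Pvalb in Sst-type nuclei was below the range of the 6 libraries without J20 in both J20 libraries. It was 4.84 to 27.6 CPM in the former and 2.51 and 2.97 CPM in J20;WT and J20;GKO, which rest on 1 and 2 UMIs (exact permutation p = 0.0714, two-sided, the smallest possible). The exact Poisson intervals, 0.064 to 14.0 CPM and 0.36 to 10.7 CPM, overlapped those of GKO 1 (0.998 to 14.1 CPM), and this value was picked out after the levels were seen. Pvalb-type nuclei were 16.0% to 25.2% of interneurons without J20, and 18.7% and 22.8% with J20. Both the share of this subtype and its Pvalb level in J20 lay inside the range of the other libraries.

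**Figure D3:**
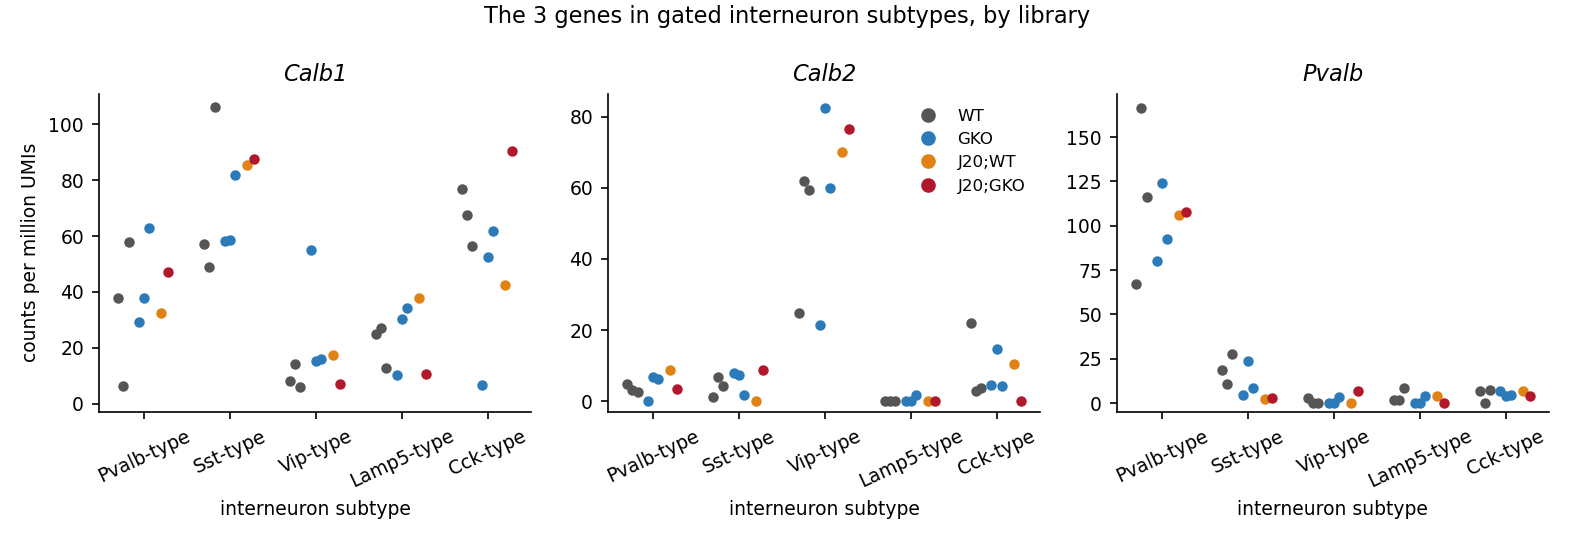
CPM (vertical axis) of the 3 genes in 5 gated interneuron subtypes (horizontal axis), 1 point per library, coloured by genotype. Pvalb lies at 67.1 to 166 CPM in the Pvalb-type subtype, Calb2 reaches 82.4 CPM in the Vip-type subtype, and Calb1 is spread over several subtypes, with J20 at 2.51 and 2.97 CPM for Pvalb in Sst-type nuclei, below the other libraries, and at 42.4 and 90.5 CPM for Calb1 in Cck-type nuclei, the latter above them.

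Few interneurons held UMIs of more than 1 of the genes. Of 1819 interneurons, 410 had a Calb1 UMI, 134 a Calb2 UMI and 286 a Pvalb UMI, and 732 (40.2%) had at least 1 of them. Calb1 was found in 20.1% of the Calb2 nuclei and 22.0% of the Pvalb nuclei, against 22.5% of all interneurons. Over single libraries its share of the Pvalb nuclei ranged from 9.76% in WT 2 to 44.7% in WT 1, and in 6 of 8 libraries it was below the share in all interneurons of that library. Calb2 and Pvalb were found together in 10 nuclei. A nucleus without a UMI of a gene may still express it, so these counts do not settle which genes are expressed together.

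In Cajal-Retzius nuclei, which are born early and line the hippocampal fissure, Calb2 varied widely among libraries of 1 genotype. It was 143, 260 and 40.6 CPM in WT, 166, 73.5 and 20.8 CPM in GKO, 39.3 CPM in J20;WT and 264 CPM in J20;GKO. These 2 libraries lay far apart, at 2 and 34 UMIs from 17 and 21 nuclei. The log2 fold change with J20 was 0.50 ± 0.91 (SE, edgeR adjusted p = 1.00), and -2.23 without J20;GKO. Calb1 was at 74.2, 78.5 and 0 CPM in WT, 55.9, 26.2 and 6.93 CPM in GKO, and 19.6 and 7.78 CPM in J20;WT and J20;GKO (1 UMI each), with a change of -1.94 ± 1.27 (SE, edgeR adjusted p = 0.994). None of 4806 genes passed the threshold in this class, 0%, with 248 at an unadjusted p under 0.05 and none in DESeq2, and in simulated counts of this class only 1.0% of true 2-fold changes were called, so that a change of that size was not detectable.

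Cajal-Retzius nuclei were also divided by Ebf2, a transcription factor in their marker list that was singled out after its counts were seen. An Ebf2 UMI was found in 84 of 344 Cajal-Retzius nuclei. Calb2 was at 317 CPM (exact Poisson 95% interval 280 to 359) in these and at 29.7 CPM (20.4 to 41.7) in the 260 others, and a Calb2 UMI was found in 81.0% and 10.0% of them. Calb1 was at 95.1 CPM (75.0 to 119) and 20.7 CPM (13.1 to 31.0). In both sets Pvalb was below 10 CPM. Nuclei with Ebf2 had a median of 8515.5 UMIs and those without 3067 UMIs, so the shares are not at equal depth, while CPM are scaled to it. The 260 nuclei without an Ebf2 UMI were placed by the other genes of the list, and whether they are Cajal-Retzius cells was not tested. Values given for the class as a whole hold both sets.

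The share of Cajal-Retzius nuclei with an Ebf2 UMI was 42.9%, 25.4% and 0% in WT, 36.7%, 12.7% and 5.26% in GKO, 0% in J20;WT and 38.1% in J20;GKO. In both the Ebf2 share and Calb2, the same 4 libraries were highest. The Calb1 values did not follow that order, since J20;GKO had one of the higher Ebf2 shares and a Calb1 level of 7.78 CPM, below the 26.2 CPM of GKO 2. These levels rest on 1 and 5 UMIs. Their exact Poisson intervals (0.197 to 43.3 and 8.52 to 61.2 CPM) overlap, so the order of these libraries is not settled. Within the Ebf2 nuclei of the 4 libraries that held at least 8 of them, Calb2 was 287, 490, 274 and 365 CPM in WT 1, WT 2, GKO 1 and J20;GKO. Calb1 was 123, 117 and 88.8 CPM in the first 3 and 12.2 CPM in J20;GKO, from 1 UMI with an interval of 0.308 to 67.7 CPM over 8 nuclei. With no second J20 library that holds such nuclei, the J20;GKO values have no replicate. In the 7 Ebf2 nuclei of GKO 2, below that cut, Calb2 was at 209 CPM and Calb1 at 29.8 CPM. This Calb1 value also came from 1 UMI, with an interval of 0.755 to 166 CPM that overlaps that of J20;GKO.

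**Figure D4:**
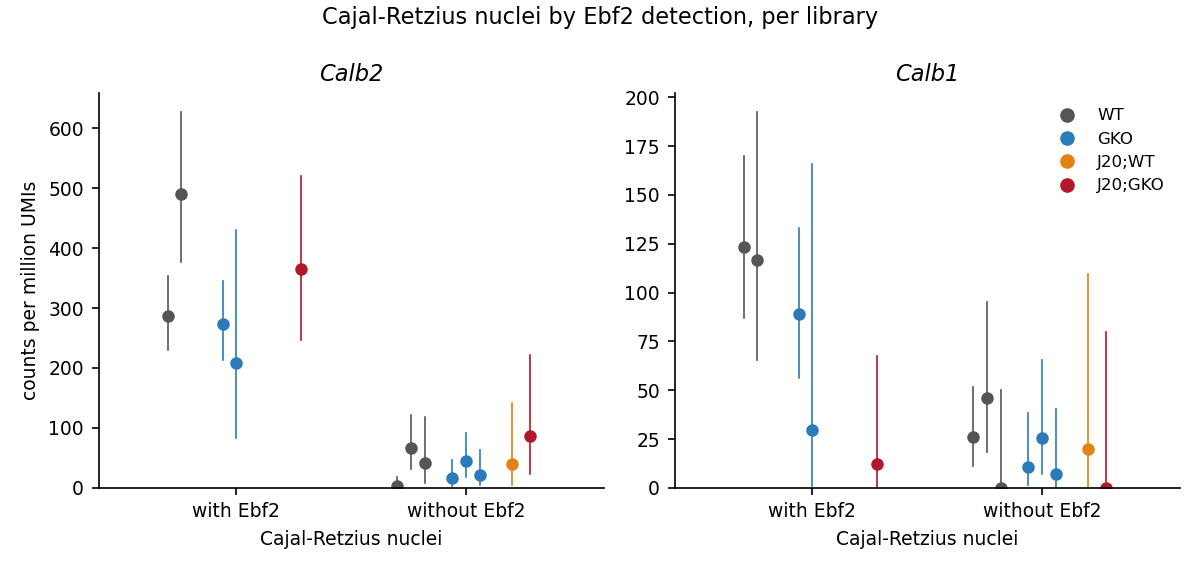
CPM (vertical axis) of Calb2 and Calb1 in Cajal-Retzius nuclei with and without an Ebf2 UMI (horizontal axis), 1 point per library with at least 5 such nuclei and bars for the exact Poisson 95% interval of counting error. Calb2 is at 209 to 490 CPM in nuclei with Ebf2 and at most 86.4 CPM in those without.

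Between GKO and WT mice, Calb1, Calb2 and Pvalb were not called in any class tested. In dentate granule nuclei the means of Calb1 were 126 ± 6.75 CPM in WT and 128 ± 15.6 CPM in GKO (SD, n = 3 each), with a log2 fold change of 0.04 ± 0.10 (SE, 95% interval -0.16 to 0.24, edgeR adjusted p = 1.00). Of 14158 genes 0 passed, 0%, with 191 at an unadjusted p under 0.05 and 0 in DESeq2. In simulated counts of this comparison 76.5% of true 2-fold changes were called, and 9.47% of the called genes had been given no change. Calb1 changed by 0.12 ± 0.12 in CA1 and 0.06 ± 0.21 in interneurons, Calb2 by 0.33 ± 0.40 and Pvalb by -0.13 ± 0.33 in interneurons (SE), with edgeR adjusted p of 1.00 each. In CA3, where its levels were no higher than in glia, Calb1 changed by -0.63 ± 0.31 (SE, 95% interval -1.24 to -0.01). The normal interval leaves out 0 although the unadjusted edgeR p was 0.065. This change was -0.97 without WT 2 and -0.35 without WT 3. In Cajal-Retzius nuclei Calb1 changed by -0.83 ± 0.66 and Calb2 by -0.73 ± 0.66 (SE), and the edgeR adjusted p of these 3 values was 1.00 each. The smallest p of an exact permutation test of 3 against 3 is 0.10. The share of genes past the threshold was 0% in CA1, 0% in CA3, 0% in interneurons and 0% in Cajal-Retzius nuclei, with 257, 225, 144 and 79 genes at an unadjusted p under 0.05, and DESeq2 gave 1, 1, 0 and 0 genes.

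J20;GKO and J20;WT are 1 library each and were not tested. In dentate granule nuclei Calb1 was 49.1 CPM in J20;GKO (exact Poisson 95% interval 42.0 to 57.1, counting error only) and 69.0 CPM in J20;WT (61.9 to 76.7). In CA1 the order was the opposite, 50.8 CPM (44.0 to 58.3) against 33.8 CPM (27.6 to 40.8). The intervals did not overlap in either class, but they hold no difference between mice, and the libraries also differ in date and in Xist.

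Other genes of calcium handling were taken from lists of EF-hand buffers and sensors, calcium extrusion and calcium stores, and of genes linked to neuronal activity. Of the 22 EF-hand genes tested in dentate granule nuclei, 3 were higher and 2 lower with J20, beside 4.91% of all genes past the threshold, and the median log2 fold change was -0.01 against -0.00 over all genes. Kcnip1, a sensor that binds Kv4 potassium channels, was at 3.58 to 8.58 CPM without J20 and 31.7 and 26.2 CPM with it (log2 fold change 2.21 ± 0.23). Necab3 was at 15.6 to 20.9 CPM and 44.5 and 103 CPM (1.90 ± 0.21), and Kcnip3, which is also the repressor DREAM, at 153 to 195 CPM and 253 and 603 CPM (1.18 ± 0.23). Kcnip2 was at 144 to 191 CPM and 92.1 and 94.2 CPM (-0.88 ± 0.14), and Hpca, hippocalcin, at 44.5 to 55.9 CPM and 19.1 and 36.3 CPM (-0.95 ± 0.21, SE throughout). Of the called Kcnip genes, Kcnip1 and Kcnip3 were thus higher and Kcnip2 lower.

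**Figure D5:**
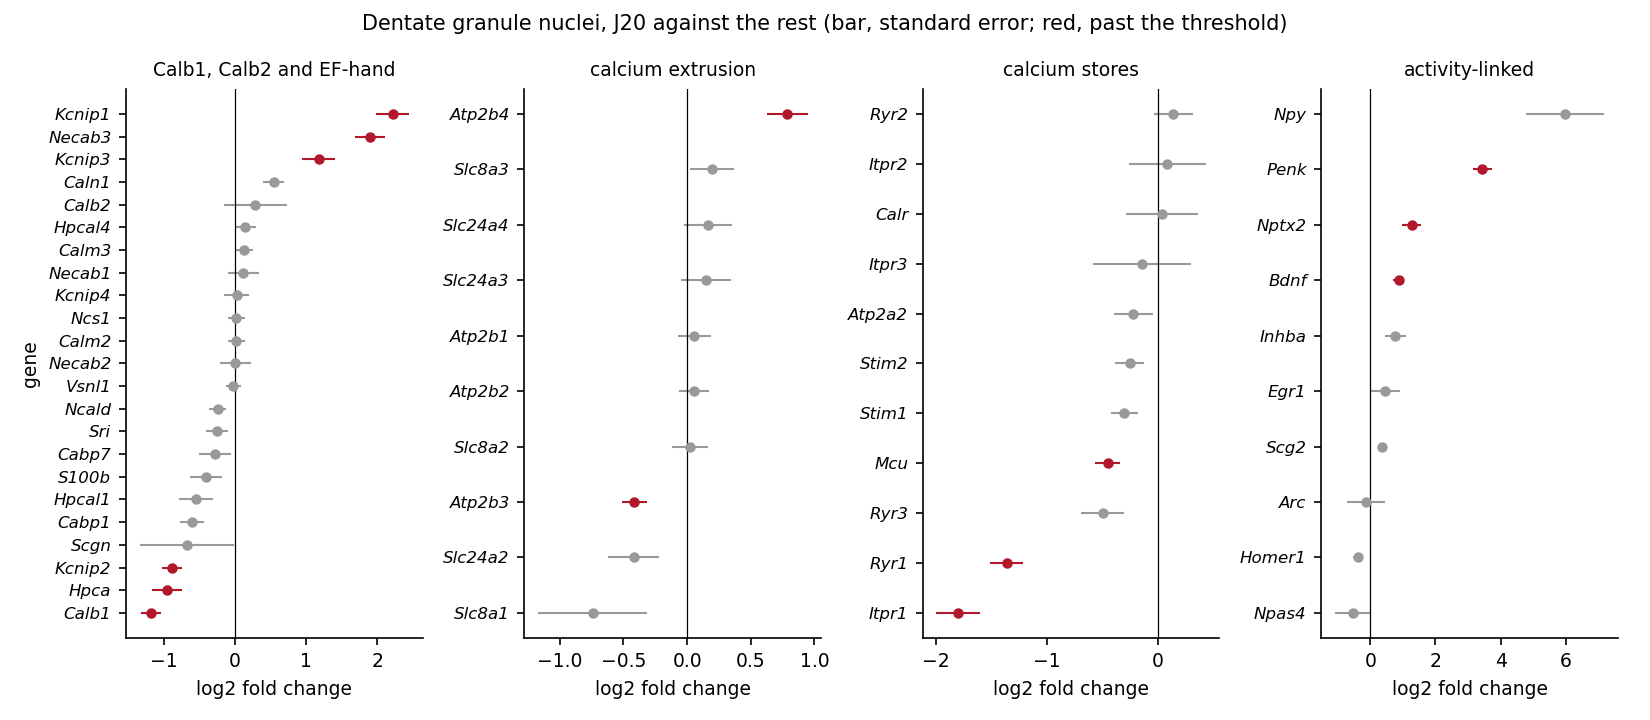
Log2 fold change with J20 in dentate granule nuclei (horizontal axis, bars for the standard error) of Calb1, Calb2 and the tested genes of 4 lists but 1 (vertical axis), with genes past the threshold in red and others in grey. Calb1 is at -1.17 and Calb2 at 0.29, and the stores list holds 3 genes past the threshold, all lower.

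Among genes of the intracellular stores, 3 of 11 tested were lower and 0 higher in dentate granule nuclei, beside 2.71% of all genes lower, and the median log2 fold change was -0.26 against -0.00 over all genes. Itpr1, the main neuronal IP3 receptor, was at 284 to 400.4 CPM without J20 and at 134 and 84.0 CPM in J20;WT and J20;GKO (-1.80 ± 0.20, edgeR adjusted p = 7.9e-04). Ryr1, a ryanodine receptor, was at 41.7 to 53.7 CPM against 21.1 and 19.5 CPM (-1.36 ± 0.15), and Mcu, the pore of the mitochondrial calcium uniporter, at 183 to 227 CPM against 161 and 151 CPM (-0.45 ± 0.11). For these 3 genes, as for Calb1, both J20 libraries were below all 6 others. Ryr2, another ryanodine receptor, was at 0.14 ± 0.18 and did not pass. Of 10 extrusion genes, Atp2b4 was higher (0.79 ± 0.16) and Atp2b3 lower (-0.41 ± 0.10), both plasma-membrane calcium pumps, and 8 did not pass.

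Among 10 activity-linked genes tested, 3 were higher and 0 lower, beside 2.21% of all genes higher, and the median was 0.61 against -0.00 over all genes. Penk, proenkephalin, was at 3.07 to 5.59 CPM without J20 and 29.3 and 70.1 CPM with it (3.44 ± 0.28), Bdnf at 56.0 to 84.3 CPM and 119 and 149 CPM (0.87 ± 0.16), and Nptx2, a synaptic pentraxin, at 3.27 to 5.67 CPM and 7.43 and 16.6 CPM (1.28 ± 0.29, SE). Npy was at 1.96 to 3.48 CPM without J20, 9.43 CPM in J20;WT and 659 CPM in J20;GKO (5.98 ± 1.21, edgeR adjusted p = 0.062), and did not pass. Fos and Fosb did not pass the filter on low counts, and Arc, Egr1 and Npas4 were at -0.13, 0.46 and -0.54 and did not pass. In CA1, CA3, interneuron and Cajal-Retzius nuclei 0 genes of the 4 lists passed.

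Itpr1, Ryr1, Kcnip1, Kcnip2, Necab3 and Penk passed under each of the 20 alternatives, and the other called genes did not. Without J20;GKO, Kcnip3 was at 0.43, Bdnf at 0.61, Nptx2 at 0.66, Atp2b4 at 0.57, Mcu at -0.50 and Atp2b3 at -0.49, and none passed. Without J20;WT, Hpca was at -0.48, Mcu at -0.41 and Atp2b3 at -0.35, and none passed. Calls of Atp2b3 were lost in 12 of 20 alternatives, of Mcu in 7, of Kcnip3 in 6, of Nptx2 in 4, of Hpca in 3, of Atp2b4 in 2 and of Bdnf in 1. Among the other libraries, leaving out GKO 2 ended the calls of Hpca (-0.97), Nptx2 (1.25), Kcnip3 (1.10), Atp2b4 (0.75) and Atp2b3 (-0.42), and leaving out GKO 3 those of Kcnip3 (1.17), Mcu (-0.42) and Atp2b3 (-0.42). Without GKO 1 the calls of Kcnip3 (1.09) and Mcu (-0.47) ended, and without WT 1 those of Kcnip3 (1.17) and Atp2b3 (-0.41). Without WT 2 Mcu was at -0.45 and Atp2b3 at -0.41, and without WT 3 they were at -0.44 and -0.43, and neither passed.

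Calb1 was also compared between granule nuclei of 1 library with and without a UMI of Penk or Npy, which describes nuclei and not mice. In each of the 6 libraries without J20 it was lower in the 15 to 25 nuclei with a Penk UMI, at 22.9 to 102 CPM, than in the nuclei without, at 118 to 147 CPM. In the J20 libraries it was 61.8 CPM with Penk and 70.2 CPM without in J20;WT, and 52.3 and 47.5 CPM in J20;GKO. The exact Poisson intervals of the nuclei with and without Penk overlapped in both J20 libraries and in WT 2 and GKO 3, and did not overlap in WT 1, WT 3, GKO 1 and GKO 2. Nuclei with a Penk UMI were 2.11% to 3.63% of granule nuclei without J20, 13.8% in J20;WT and 31.9% in J20;GKO. In J20 granule nuclei without a Penk UMI, Calb1 was below the 118 CPM of the lowest library of the others. At the depth of these nuclei, one without a Penk UMI may still express Penk, so they are not a set free of it.

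Npy UMIs were found in 79.9% of granule nuclei of J20;GKO, in 4.68% of those of J20;WT and in 0.52% to 2.93% of those without J20. In J20;GKO, Calb1 was 44.4 CPM (36.9 to 52.9) in nuclei with Npy and 69.0 CPM (50.5 to 92.0) in the 75 nuclei without. In J20;WT it was 60.2 CPM (33.7 to 99.4) with and 69.5 CPM (62.2 to 77.4) without Npy. In nuclei without an Npy UMI the J20 libraries were at 69.5 and 69.0 CPM, both below the 115 to 145 CPM of such nuclei in the other libraries. As for Penk, a nucleus without an Npy UMI may still express Npy.

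Over the 12 classes, the genes whose mean log2 level was most like that of Calb1, among genes of at least 50 CPM in some class, were Gabrd (r = 0.89), the delta subunit of extrasynaptic GABA-A receptors, Trpc6 (r = 0.87), which is in the dentate granule gate, and Tsga10 (r = 0.82). For Calb2 they were Cxcr4 (r = 0.89), Ssh1 (r = 0.87) and Bahcc1 (r = 0.86), and for Pvalb Vip (r = 0.97), Crhbp (r = 0.93) and Ltf (r = 0.92). These are Pearson correlations over 12 classes that share libraries and depth, and classes are not replicates. Over the 8 libraries in dentate granule nuclei the nearest genes to Calb1 were Nsf, Zfp536 and Mgll, and no coefficient is given since the J20 libraries stand apart. Zfp536 was at 172 to 193 CPM without J20 and 101 and 74.4 CPM with it (-1.11 ± 0.11), Mgll, which breaks down the endocannabinoid 2-AG, at 148 to 180 CPM and 110 and 84.3 CPM (-0.78 ± 0.12), and Nsf, the vesicle-fusion ATPase, at 847 to 940 CPM and 702 and 619 CPM (-0.51 ± 0.11, SE). The call of Zfp536 held under each of the 20 alternatives, that of Mgll was lost without J20;GKO (-0.64), and that of Nsf without WT 2 (-0.52), GKO 2 (-0.51), GKO 3 (-0.49), J20;WT (-0.57) or J20;GKO (-0.45).

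The genes with the smallest p in dentate granule nuclei set the scale of the Calb1 change. Higher with J20 were Gm40893 (4.70), App (1.51) and Far2os1 (3.14) on the log2 scale, and lower were Trabd2b (-2.64), Dsp (-1.92), a desmosomal protein and one of the gate genes, and Palmd (-1.68). Zbtb20, a transcription factor named in the insertion allele of the J20 strain, was at 3002 to 3963 CPM without J20 and 2064 and 1826 CPM with it (-0.91 ± 0.16, SE), and -0.84 without J20;GKO, where it did not pass.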

How the data were processed

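Nuclei of mouse hippocampus were profiled on the 10X Genomics platform, 1 library per mouse. Per the file headers and the methods of the study, the authors counted UMIs with Cell Ranger 3.0.2 against mm10, and the deposited counts are raw and not normalized. A nucleus was kept with 200 to 7500 genes and at most 5% mitochondrially encoded UMIs, the authors' filter. Nuclei were gated by marker lists: a score per list (mean of ln of 1 + counts per 10000 UMIs over the SD of each gene), at least 2 detected markers and a margin of 0.25 to the next list. No nuclei were removed as doublets. An alternative left out nuclei above the 95th percentile of UMIs.

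Counts were summed per class and library and fitted over all genes of a class with edgeR 4.0.16 (TMM, filterByExpr, robust quasi-likelihood) in R 4.3.3, with Benjamini-Hochberg adjustment, so that p-values measure the spread between these mice. J20 was compared over all 8 libraries with Gsap genotype as a covariate, and GKO with WT over 6. Standard errors are the log2 fold change over the root of F, and 95% intervals of it are normal, which makes them narrower than the F test implies. Class differences used limma 3.58.1 on log2 CPM with a prior count of 0.5, a test added after seeing the data. Permutation tests used log2(CPM + 1) in scipy 1.17.1. Alternatives were DESeq2 1.42.0, other scalings, gates and filters, a date term, and leaving out each library. Poisson and binomial intervals (exact, 95%) and the floor of 3 counts for a 0 cover counting error only. In a test on simulated data, where 200 genes were given a 2-fold change, the J20 comparison called 58.5% of them in dentate granule nuclei, 58.0% in CA1, 60.0% in CA3 and 41.5% in interneurons. Of the genes called, 7.14%, 1.69%, 8.4% and 8.79% in these classes had been given no change.

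Replicate numbers were checked for pairing over all nuclei: WT and GKO libraries of the same number correlated at 0.57, 0.18 and 0.22 in their deviations from the group means over 19193 genes, each over 0.1, and libraries of different numbers in one date set were as close (0.22 and 0.30).

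The 3 genes and the lists were chosen with earlier results of these data known. Named genes were the 3 genes, App and Gsap as checks, list genes past the threshold, the 3 genes most like each member and the 3 with the smallest p in each direction. Zbtb20, Ebf2, Xist and the list genes named as not passing were added after their values were seen. The value of 1 gene of the EF-hand list, which did not pass, is not reported here.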

Additional observations from a re-analysis of the deposited data

Results flagged for a closer look

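The change of Calb1 with J20 was compared between classes within each library, a test chosen after seeing the data. It was -0.999 ± 0.24 (SE) in dentate granule nuclei minus CA1 nuclei, and -1.28 ± 0.22 (SE) in dentate granule nuclei minus interneurons. Both were singled out because the test of the difference itself had an unadjusted p under 0.05. After adjustment over all genes the limma p was 0.132 and 0.0887, so neither passed. The ratio of the granule level to that of the other class was lower in 2 of 2 J20 libraries than in all 6 others in both cases. Against CA3, where Calb1 was no higher than in glia, the difference was -0.31 ± 0.47, and against Cajal-Retzius nuclei -0.33 ± 1.47 (SE).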

How the results depend on the processing

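Calb1 in dentate granule nuclei with J20 kept its direction and call under the 20 alternatives, at -1.42 to -0.97 when 1 library was left out. The other values followed through the alternatives were Calb1 in CA1, CA3 and interneurons, Calb2 in dentate granule nuclei, interneurons and Cajal-Retzius nuclei, and Pvalb in interneurons, for J20 and GKO, with Calb1 in dentate granule nuclei for GKO. None of them passed, and some turned direction. For J20, Calb1 in CA1 was 0.071 with the date as a term and -0.44 to 0.034 without 1 library, Calb1 in interneurons was -0.011 with shortened marker lists, and Calb2 in Cajal-Retzius nuclei was -2.23 to 1.42 without 1 library. For GKO, without 1 library, Calb1 was -0.054 to 0.090 in dentate granule nuclei and -0.13 to 0.24 in interneurons, Calb2 in dentate granule nuclei -0.70 to 0.032 and Pvalb in interneurons -0.54 to 0.10. With shortened marker lists Calb1 was -0.0072 in CA1 and -0.028 in interneurons, and with the looser gate -0.031 in interneurons. The cause was not tested.

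With the replicate number as a block (replicate block, paired by number), GKO against WT gave Calb1 at 0.03 in dentate granule nuclei, 0.13 in CA1, -0.58 in CA3 and 0.05 in interneurons, and 1 gene past the threshold in CA3 in place of 0. It changed no other call or count.

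The count of genes past the threshold in dentate granule nuclei with J20 was 735, 1799 with the date as a term, 443 without GKO 2 and 265 without J20;GKO, with a range of 265 to 941 over the libraries left out. It was 1 to 64 in CA1 (5), 3 to 175 in CA3 (4), 0 to 6 in interneurons (0) and 0 to 4 in Cajal-Retzius nuclei (0), where the number in brackets is the reported count. For GKO it was 0 to 1 in CA1, 0 to 8 in CA3 and 0 to 3 in Cajal-Retzius nuclei, against 0 each. The list counts ranged from 3 to 7 for EF-hand genes, 0 to 4 for extrusion, 2 to 5 for stores and 2 to 5 for activity-linked genes. The ratio of J20 to the other libraries in the share of granule nuclei with a Calb1 UMI was 0.44 at 2000 UMIs, 0.50 at 1000 UMIs, 0.56 at 5000 UMIs (added after seeing the data) and 0.55 unthinned. With 2 J20 libraries the spread between J20 mice rests on 1 difference. With the date as a term the J20 values and counts rest on J20;GKO alone, the only library of its date with Xist above 100 CPM. Few UMIs limit the Cajal-Retzius values and Pvalb in granule nuclei.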
